A study of Mus musculus with 8 samples.

Results

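The genes described here are 8 genes of cholesterol synthesis and its control by SREBP2 in mouse embryonic stem (mES) cells: Srebf2, Insig1, Hmgcs1, Idi1, Fdps, Fdft1, Sqle and Lss. They were chosen by name, as SREBP2 and genes that it is known to switch on, and all 8 were found among the 17597 genes of the deposited total RNA-seq table, which also holds 1097 transposable element subfamilies, 18694 features in all. The name of the set mentions uptake, but none of the 8 genes encodes an uptake receptor, so uptake genes appear below only as a list for comparison. The 8 libraries came from METTL3-FKBP12F36V mES cells of an XX, Cast x 129S background, in which METTL3, the catalytic subunit of the m6A writer, carries a C-terminal degron tag that the small molecule dTAG-13 uses to remove the protein. Of them, 4 libraries were untreated and 4 were treated with dTAG-13 for 26 h, with 2 libraries of each of the clones C3 and H5 in each of the 2 groups. All 8 libraries also shared a TetOn promoter in place of the Xist promoter, placed by the labels on the 129S allele but by the study's own description on the Cast X chromosome, and none received doxycycline. The cells were grown on fibroblast feeders in serum and LIF, and with 2 clones the line was sampled as clones rather than as a population.

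The values given below are the authors' mean of the normalised read counts over all 8 libraries, untreated and treated together. A mean over both groups carries no spread, so no SD is given, and it cannot show whether a gene rose or fell with METTL3 depletion. No comparison of the groups is therefore made. Mettl3 itself, the tagged gene, had a mean normalised count of 684 over the 8 libraries, or 135 per kb of exons, which is no check of the depletion, since the degron acts on the protein and the mean spans both groups. The levels of the 8 genes describe the transcripts present in these cells, and the sequences describe the promoters and m6A consensus letters that these genes carry.

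Cholesterol is built from acetyl-CoA through mevalonate, isoprenoid diphosphates, squalene and lanosterol. When sterols are scarce in the endoplasmic reticulum membrane, SCAP escorts the membrane-bound precursor of SREBP2 to the Golgi, where proteases release a fragment that enters the nucleus and binds sterol response elements, often together with NF-Y and Sp1. When sterols are plentiful, INSIG proteins hold the SCAP complex back. Srebf2 and Insig1 belong to the control of the pathway, whereas Hmgcs1, Idi1, Fdps, Fdft1, Sqle and Lss encode its enzymes.

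The RefSeq promoters (GRCm38.p6, 250 bases before to 50 after the start) were read first, because the sterol response element is the feature that places a gene under SREBP2. Of the 8 genes, 5 had an entry: Srebf2, Insig1, Hmgcs1, Idi1 and Lss. The letters searched on both strands were TCACNCCAC for the sterol response element, TCACCCCA for its core (the motifs overlap), CCAAT for the NF-Y box, GGGCGG for the Sp1 box and CACGTG for the E-box. The promoters of Hmgcs1, Srebf2 and Insig1 are printed, since they hold all the sterol response element and E-box matches found. Each is shown for the stretch before the annotated start of the same gene. Transcripts of other genes were not looked for there. Capitals mark the sterol response element or its core, the E-box and the NF-Y box, the last read as its complement ATTGG.
Hmgcs1 promoter, chr13:119690101-119690350, plus strand: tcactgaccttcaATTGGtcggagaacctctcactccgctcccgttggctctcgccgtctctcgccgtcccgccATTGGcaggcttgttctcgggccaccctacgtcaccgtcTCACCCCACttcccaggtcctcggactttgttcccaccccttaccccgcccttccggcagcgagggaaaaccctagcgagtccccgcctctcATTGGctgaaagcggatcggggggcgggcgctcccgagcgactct
Srebf2 promoter, chr15:82147019-82147180, plus strand: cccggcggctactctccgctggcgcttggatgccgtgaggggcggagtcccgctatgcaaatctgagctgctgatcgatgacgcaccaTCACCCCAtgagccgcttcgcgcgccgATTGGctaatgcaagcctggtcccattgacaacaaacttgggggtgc
Insig1 promoter, chr5:28071162-28071362, plus strand: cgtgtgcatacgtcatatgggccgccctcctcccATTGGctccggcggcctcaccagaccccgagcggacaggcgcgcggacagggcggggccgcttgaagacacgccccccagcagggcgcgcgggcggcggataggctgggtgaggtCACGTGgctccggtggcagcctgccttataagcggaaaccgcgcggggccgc

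The Hmgcs1 promoter held TCACCCCAC, which matches both the full element and its core, with its first base 137 bases before the start. It was the only 1 of the 5 promoters to match the full letters, which were found in 1.24% of all 32851 promoters of this length. The core alone was found in 2 of the 5, in Hmgcs1 and at 162 bases before the start of Srebf2, against 1.56% of all promoters. The gene for SREBP2 thus carried the core letters of the element its own product binds. The Insig1, Idi1 and Lss windows did not hold these letters, which says only that the letters are not in these windows.

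Every one of the 5 promoters held the NF-Y box, with 9 matches in all, and all 9 lay on the strand opposite the gene. Hmgcs1 had 4 of them, Idi1 had 2, and Insig1, Lss and Srebf2 had 1 each. In Hmgcs1 a box lay on either side of the element, at 176 and 45 bases before the start, and in Srebf2 the box at 135 bases before the start followed the core. NF-Y letters occurred in 37.4% of all promoters. The Sp1 box was also in 5 of 5, with 14 matches. It was found in 35.7% of all promoters but in 62.7% of those whose gene reached a mean count of 10 in these cells. The E-box is the other kind of letters that SREBP proteins can bind. It was found in 1 of 5, at 101 bases before the start of Insig1. Its share was 7.15% of all promoters and 9.99% of those whose gene reached a mean count of 10. These shares are a description, since the genes were chosen as targets of SREBP2 in the first place.

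**Figure D1:**
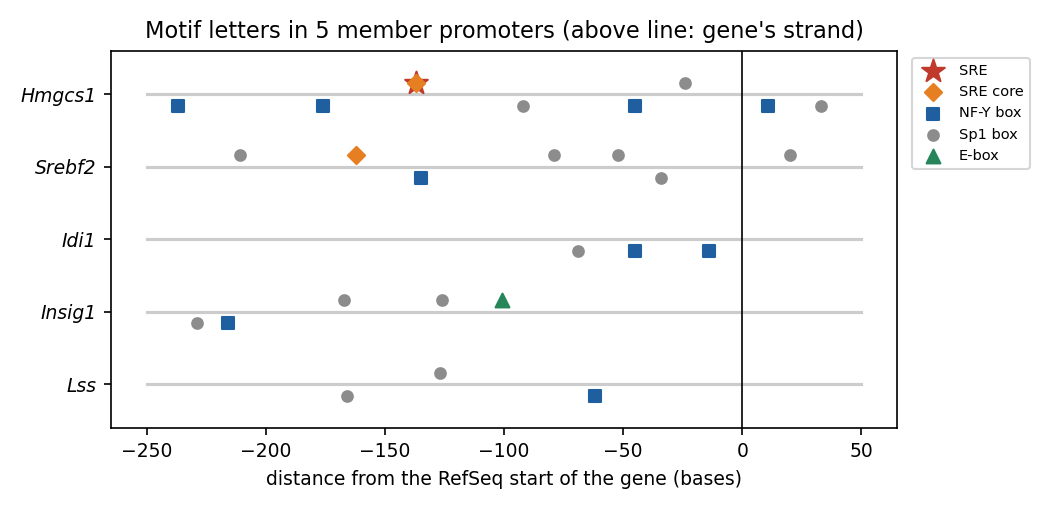
Positions of motif letters in the RefSeq promoters of 5 genes, by distance in bases from the start of the gene; symbols above a line are on the gene's strand and those below it on the opposite strand. The sterol response element and its core lie together at 137 bases before the start in Hmgcs1, the core alone at 162 in Srebf2, and all 9 NF-Y boxes lie below the lines.

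The deposited means are first given as they stand, although longer transcripts give more reads. Hmgcs1, the cytosolic synthase that makes HMG-CoA at the entry of the mevalonate route, had a mean normalised count of 4887, at the 97.0th percentile of the mean counts of all genes. Srebf2, the lowest of the 8, had a mean count of 882 and still lay at the 77.2th percentile. Together the 8 genes took 17675 counts, or 0.121% of the counts of all genes.

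Levels were therefore compared between genes per kb, dividing the mean count by the union of a gene's annotated exons (GENCODE vM21, GRCm38). The study names the UCSC genome browser as the source of its gene annotation. The exons in which reads were counted may therefore differ from those that give these lengths, which was not checked. On this per kb scale the median of the 8 genes was 509 per kb, against 39.9 for the 17375 genes with a length. All 8 had a mean count above 10, and for genes that reached a mean count of 10 the median was 81.2 per kb. Of the 8, 5 lay above the 90th percentile of all genes, 506 per kb, with Fdft1 and Fdps just past it. By the longest protein-coding transcript 3 of the 8, Hmgcs1, Idi1 and Fdps, lay above the 90th percentile on that scale, 767 per kb. By all exons the highest was 8.67 times the lowest. The order was Hmgcs1, Idi1, Insig1, Fdps, Fdft1, Sqle, Lss and Srebf2. Neighbours in it cannot be told apart by a test, as a mean over libraries has no spread.

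**Figure D2:**
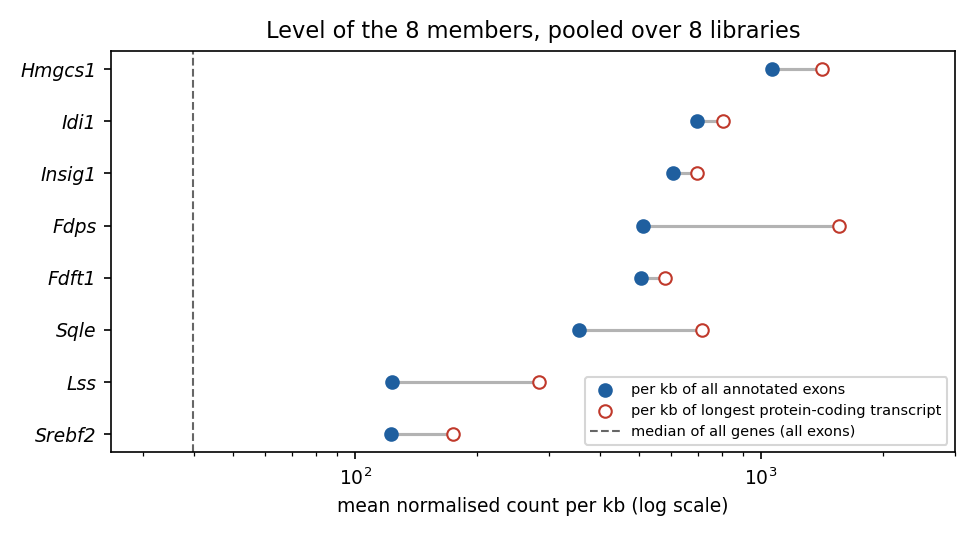
Mean normalised count per kb (log axis) of the 8 genes over the 8 libraries, divided by all annotated exons (filled) or by the longest protein-coding transcript (open). The dashed line is the median of all genes by all exons, 39.9 per kb. By the longest protein-coding transcript that median was 65.2 per kb and is not drawn. All 8 genes lie above the line, and Fdps moves most between the lengths, from 512 to 1559 per kb.

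Srebf2 lies at chr15:82147181-82205379 on the plus strand and encodes the SREBP2 precursor. Its level was 123 per kb, the 68.7th percentile. Srebf1, which encodes the related factors that favour fatty acid genes, had 156 per kb. The Srebf2 level was thus 0.787 times that of Srebf1 and 0.849 times by the longest coding transcript. Their mean counts were nearly equal, 882 for Srebf2 and 879 for Srebf1, so these ratios came from the annotated lengths. Intron 16 of Srebf2 also holds the microRNA gene Mir33, whose 5p product is known to repress cholesterol efflux genes such as Abca1. Its RefSeq sequence, at chr15:82198127-82198147 on the plus strand, is shown with the seed in capitals because the host gene carries this second product.
mmu-miR-33-5p: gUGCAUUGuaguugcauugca
Mir33 had no row of its own in the table, and the Srebf2 level says nothing about the mature microRNA.

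Insig1, at chr5:28071363-28078662 on the plus strand, encodes an anchor that retains SCAP when sterols are plentiful, and is itself a target of SREBP2. It had 605 per kb, the 91.7th percentile. Its relative Insig2, which is not under SREBP2 in the same way, had a lower level. The Insig1 level was 6.05 times the Insig2 level per kb, or 5.39 times by the longest coding transcript. Per kb of all exons Insig1 was the only 1 of the 13 sensing and processing genes above the 90th percentile, whereas by the longest coding transcript it was Mbtps1, at 918 per kb, and Insig1, at 694, lay at the 89.0th percentile.

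Among the early enzymes, Hmgcs1 (chr13:119690379-119708260, plus strand) had 1064 per kb, the 95.8th percentile and the highest of the 24 synthesis genes examined by all exons, though Fdps was above it by the longest coding transcript. Idi1 (chr13:8885501-8892451, plus strand), which interconverts the isoprenoid units isopentenyl and dimethylallyl diphosphate, had 696 per kb. The neighbouring paralog Idi2 was close to absent, with a mean count of 0.565, so that nearly all reads assigned to this pair went to Idi1. Fdps (chr3:89093588-89101959, minus strand), which makes farnesyl diphosphate, had 512 per kb by all exons but 1559 per kb by its longest coding transcript of 1382 bases. Its rank among the 8 was 4 on the first scale and 1 on the other. Of the annotated Fdps exon bases, 26.7% were shared with the gene Gm43738 on the same strand. Reads of this pair could be split only if Gm43738 was also counted, which was not checked.

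Of the enzymes from squalene on, Fdft1 (chr14:63145150-63179578, minus strand), squalene synthase, had 507 per kb and commits farnesyl diphosphate to sterols. Sqle (chr15:59315077-59331192, plus strand), the squalene epoxidase, had 356 per kb, or 715 per kb by its longest coding transcript. Lss (chr10:76531588-76557138, plus strand), which closes the ring to lanosterol, had 123 per kb, or 284 by the longest coding transcript, and ranked 7 of the 8 on both scales. Exons of other genes on the opposite strand overlapped 18.3% of the Fdft1 exon bases (Ctsb), 12.1% of those of Hmgcs1 (Gm48342), 9.21% of those of Idi1 (Gm48574) and 3.53% of those of Lss (4930483K19Rik). Whether strand was used in counting is not stated for this table, so reads in those stretches cannot be assigned to 1 gene with certainty. Whether the authors' annotation holds each of these overlapping genes was not checked.

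The 8 genes were then set beside lists of genes grouped by role. All 24 synthesis genes were in the table, with a median of 404 per kb; 21 of them lay above the median of all genes and 10 above the 90th percentile, or 6 by the longest coding transcript. The 18 of these that are not among the 8 had a median of 323 per kb, and 6 of them were above the 90th percentile, or 3 by the longest coding transcript. The early mevalonate list of 11 genes had a median of 501 per kb. Mvd, the decarboxylase that makes isopentenyl diphosphate, stood at 724 per kb. Acat3, with 18.1 per kb, and Idi2, with 0.251, were the lowest of that list. The squalene and sterol list of 13 genes had a median of 356 per kb. Lbr, a sterol reductase that is also a nuclear envelope protein, had 958 per kb, Ebp, the sterol isomerase, had 801, and Cyp51, the lanosterol demethylase, had 557. Tm7sf2, the other reductase of the step that Lbr carries out, had 35.4 per kb and Hsd17b7 had 39.9. Lss, at rank 9 of 13 by either length, lay below the median of this list, while Sqle was at rank 7 by all exons and at rank 3 by the longest coding transcript.

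All 13 sensing and processing genes lay above the median of all genes per kb of all exons, and 12 by the longest coding transcript, with a list median of 140 per kb of all exons. Mbtps1, the first of the proteases that release SREBP, had 378 per kb. Scap had 81.7 per kb and Spring1, listed under an older name, had 47.3. Srebf2 ranked 8 of 13 by either length, and Insig1 ranked 1 by all exons and 2, after Mbtps1, by the longest coding transcript.

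The lists for uptake and efflux had medians below the 39.9 per kb of all genes. Of 14 uptake and lysosomal genes, 6 lay above the median of all genes and 0 above the 90th percentile, with a list median of 31.7 per kb. Npc2, which hands cholesterol on inside the lysosome, had 430 per kb and Stard3, a late endosomal sterol carrier, had 70.8. Vldlr had 2.96 and Npc1l1, the intestinal sterol transporter, had 0.667. Of 12 efflux, storage and oxysterol receptor genes, 10 were found, with a median of 16.1 per kb, a range from 0.185 to 4011 and 1 gene above the 90th percentile. With genes under a mean count of 10 left out, the efflux median was 66.2, above the 39.9 of all genes but below the 81.2 of all genes filtered in the same way. Below the highest gene of that list, Nr1h2 (LXR beta) had 206 per kb, Abca1, the cholesterol exporter, had 94.2, Cyp46a1 had 0.692 and Abcg8 had 0.185. The 12 fatty acid synthesis genes had a median of 180 per kb, led by Acly at 1504, Scd2 at 892 and Fasn at 865, whereas Acacb had 42.9 and Acss2 had 13.8.

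**Figure D3:**
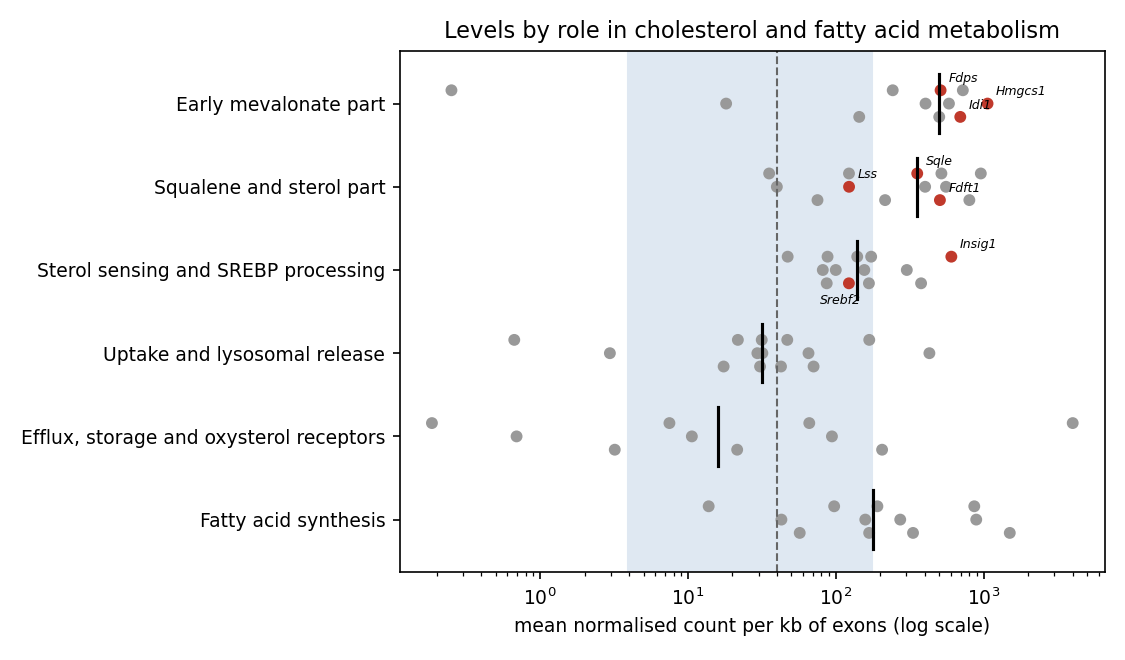
Mean normalised count per kb of exons (log axis) for every gene found in the role lists; red points are the 8 genes, black bars the list medians, the dashed line the median of all genes and the shaded band the range from the 25th to the 75th percentile of all genes. The early mevalonate list has a median of 501 per kb and the uptake list 31.7, and Lss and Srebf2 are the lowest of the red points.

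The cell type was read from its markers. All 8 mES cell markers were present, from 464 to 16142 per kb, with Pou5f1, the gene for OCT4, at 5309. Of 10 fibroblast markers, which the feeders could bring in, 8 reached a mean count of 10. Their levels ran from 0.0882 to 1077 per kb, with the collagen gene Col1a1 at 3.02 and Postn at 0.0882, the lowest, while Lgals1 was the highest. Sparc, Fn1, Vim, Lgals1 and S100a6 are made by many cell types and are weak evidence of fibroblasts. Of 5 hepatocyte genes, 2 were found and 0 reached a mean count of 10. The part of feeder RNA in the levels of the 8 genes was not tested.

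Since METTL3 places m6A within a short consensus, the longest protein-coding transcript of each gene was searched for GGACT, the commonest form of it. The marks are known to lie mostly near stop codons and in long exons. A match is not a methylated site, and no m6A measurement is used here. The 8 transcripts had a median of 1.10 matches per kb, against 1.05 for 16348 genes. Lss stood highest, with 11 matches, 9 of them coding, or 2.36 per kb, the 93.6th percentile. Srebf2 had 7, Fdft1 had 6, Sqle and Insig1 had 3 each, Hmgcs1 had 2, Fdps had 1 and Idi1 had 0. Per kb the order was different, with Fdft1 at 1.62 and Srebf2 at 1.38.

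For the 5 genes with a match in the 3′ UTR, the match nearest to the stop codon is shown with 10 bases on either side, on the strand of the gene and with GGACT in capitals.
Sqle: cttccacagtGGACTtgaggaccaa
Insig1: atggaggcaaGGACTgcttacctaa
Fdft1: gtgctggctgGGACTtggttcctct
Lss: taaagttcttGGACTagcttcagtg
Srebf2: tttgcattctGGACTtgatagacgc
The match lay 81 bases past the end of the coding sequence in Sqle (chr15:59330996-59331000, plus strand), 160 in Insig1 (chr5:28076978-28076982, plus), 181 in Fdft1 (chr14:63146567-63146571, minus), 195 in Lss (chr10:76553261-76553265, plus) and 456 in Srebf2 (chr15:82204371-82204375, plus). All 5 were in the last exon of the transcript. Hmgcs1 had its nearest match in the coding sequence, 170 bases before its end, in exon 10 of 11.

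**Figure D4:**
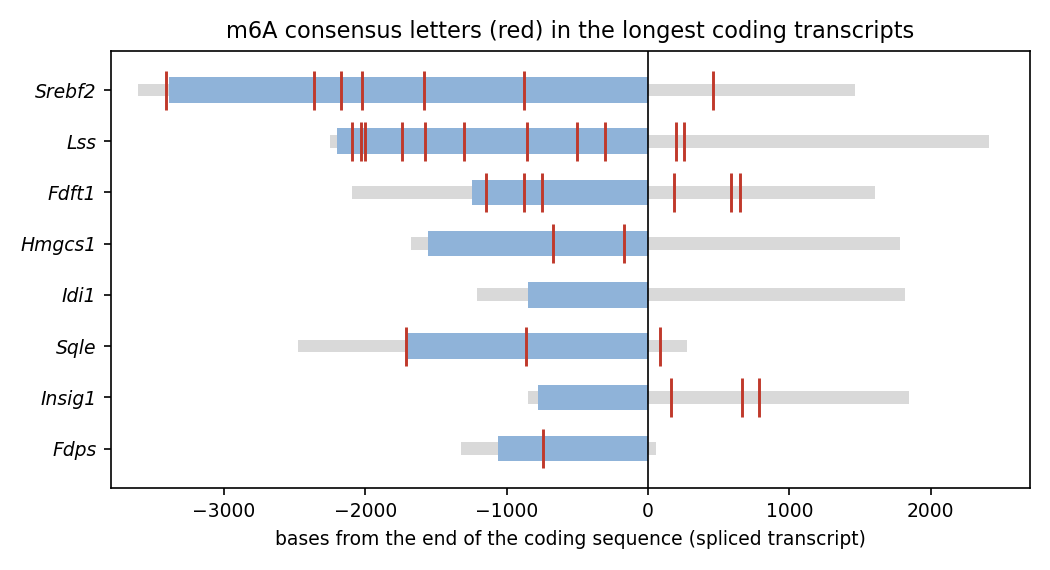
Longest protein-coding transcript of each of the 8 genes, drawn to scale in bases from the end of the coding sequence (blue, coding; grey, untranslated), with each GGACT match as a red line. Lss has 11 lines and Srebf2 has 7, while Idi1 has 0; the Sqle match lies closest to the line at 0 among those to its right.

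Other features of the 8 transcripts were read beside the medians of all genes. Their median length was 3246 bases, against 3026, with 11 exons, against 8. Their median of the longest internal exon was 234.5 bases, against 219, and GC content was 50.6%, against 50.4%. The part after the last coding codon was longer, with a median of 1694 bases, against 1047, though it ranged from 58 bases in Fdps to 2414 in Lss. Fdps had 7.96 exons per kb, the 97.4th percentile, and Idi1 had 1.65. Fdft1 had the longest internal exon, 809 bases.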

How the data were processed

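Total RNA was sequenced as stranded, rRNA-depleted libraries; the labels' extraction text describes chromatin RNA, while the molecule label and the methods say total RNA. Reads were aligned by the authors with STAR to mm10 with strain variants masked, keeping unique alignments, duplicates were removed with Picard, and genes and transposable elements were counted with TEtranscripts under default parameters. The deposited signal column is the mean normalised count over all 8 libraries, calculated by the authors. The other 5 columns of the table hold their own comparison of the groups (log2 fold change, its standard error, test statistic, p-value and adjusted p-value) and were not used. The planned count test was not run, because the table gives no count per library, so library depth is unknown; the mean counts of all features sum to 16292717.

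Symbols were matched to GENCODE vM21, 16660 directly and 715 by an older symbol, and 17375 genes obtained an exon length. Lengths from the UCSC annotation that the authors name were not used. Percentiles were calculated over all genes, and motif searches were tested on simulated sequences. Scripts used Python 3.11.15, numpy 2.4.6 and pandas 2.3.3. Besides the 8 genes and Mettl3, the genes named from each role list were the 3 highest and 2 lowest per kb; some that this rule selects are not reported here. Members and lists were chosen with earlier results of these data known, and the gene pairs, the 90th percentile, Mir33, the remaining marker genes and the GGACT windows were chosen after the values were seen.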

Additional observations from a re-analysis of the deposited data

How the results depend on the processing

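The levels depended on the length used. The median of the 8 genes was 509 per kb of all exons and 705 per kb of the longest protein-coding transcript, which moved Fdps from rank 4 to rank 1. With that length, an alternative chosen after seeing the data for the counts and lists, the genes above the 90th percentile went from 5 to 3 of the 8 and from 10 to 6 of the 24 synthesis genes. The list medians became 659 (early mevalonate), 529 (squalene and sterol), 185 (sensing), 37.4 (uptake), 18.8 (efflux) and 255 (fatty acid synthesis). Their median percentile was 90.1 by mean count, 87.2 among the 13590 genes that reached a mean count of 10, and 90.1 per kb. With each of the 8 genes left out in turn, their median stayed between 507 and 512 per kb. With genes under a mean count of 10 left out, the list medians became 507 for the early mevalonate list, 31.9 for uptake and 66.2 for efflux and storage, the last from 16.1, and the other lists kept all their genes. Allowing 1 mismatch raised the promoters with the sterol response element from 1 to 3 of 5, and the share of all promoters from 1.24% to 24.2%; for the core the promoters stayed at 2 of 5 while the share rose from 1.56% to 26.2%. The transcript with the longest coding sequence was the longest transcript for all 8 genes, so the transcript features did not change; the union of exons was not run for them. No paired analysis was possible because the table gives 1 mean per gene over all libraries and no value per library. For the same reason the scaling, the low-count filter and leaving out each library could not be run for the groups, and neither depth nor the spread between libraries is known.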
